A study of Mus musculus with 48 samples.

Results

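The complement genes Cfb, Cfi, C1qa and C1qb were followed in whole kidneys of 48 female BALB/c mice given vancomycin or saline. The 4 genes were picked by name and make up 4 of the 7859 genes that could be named on the array, of which 5745 passed the filter on low values. The mice formed 8 groups of 6. The intravenous (iv) and intraperitoneal (ip) routes each had a saline group and groups dosed with vancomycin at 50, 200 and 400 mg/kg, all given once daily for 7 days, with kidneys taken on Day 8. The antibiotic vancomycin, a glycopeptide used against Gram-positive bacteria, can injure the kidney, and the design asks how the kidney transcriptome changes with its dose and route. The labels name no genetic alteration, so the groups shared strain, sex and injection schedule and differed in agent, dose and route.

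Complement is a cascade of plasma and cell-surface proteins that marks targets for uptake, attracts leukocytes and can lyse membranes. The classical pathway begins when C1q, a recognition molecule built from A, B and C chains, binds antibody complexes or the surface of dying cells and activates its partner proteases. The alternative pathway amplifies the reaction through a convertase whose protease part comes from factor B, and factor I shuts the reaction down by cutting the active fragments together with cofactors. Most circulating complement is made by the liver, but kidney epithelium and macrophages also make components, and C1q is a product chiefly of macrophages and related myeloid cells. Each array held RNA of a piece of whole kidney, so a larger number of cells of a type and more RNA per cell cannot be told apart in any of the values below.

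Values are log2 hybridisation intensities, and each array is 1 mouse. The order of the value rows is shifted against the order of the probe set identifiers, so each gene name rests on a reconstruction by row position. Cfb, Cfi and C1qa each had 1 named row. C1qb had 2 named rows of the 3 probe sets that the array carries for it, and the row with the higher mean was used. All 4 rows exceeded the median of the whole table, 3.47, on 48 of 48 arrays, so the filter did not select them for being high in a treated group. The naming was checked on C1qa and C1qb, whose genes lie in 1 cluster. Cfb and Cfi have 1 probe set each on the array and no second row, so their names were not checked in this way. Of the 45100 other rows of the table, the row closest to that of C1qa over the 48 arrays was the other row of C1qb (Pearson r = 0.99), and the reverse also held. These 2 rows share a stretch of the table, while the C1qb row in use lies in another. The check thus does not cover the name of the row in use. That row correlated with C1qa at r = 0.97 and ranked 58 among the rows closest to C1qa. With the other row of C1qb it also had r = 0.97, and it ranked 44 among the rows closest to that other row. The tissue label was checked on kidney epithelial genes. In the iv saline group Slc34a1, the phosphate transporter of the proximal tubule, had a mean of 13.23 and Umod, the uromodulin gene of the thick ascending limb, a mean of 13.27.

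Array medians ran from 3.34 to 3.55 in the iv arrays and from 3.47 to 3.68 in the ip arrays, which overlapped. The 90th percentiles ran from 8.28 to 8.75 iv and from 9.07 to 9.23 ip and did not overlap. Of the 5745 genes, 57.7% differed between the saline groups of the routes, with a median log2 difference (ip minus iv) of 0.41, so doses were compared with saline of the same route, and levels were ordered within a route only. The arrays of mouse 1 (saline), mouse 9 (50 mg/kg), mouse 27 (200 mg/kg) and mouse 44 (400 mg/kg), 4 of the iv arrays, stood apart through a higher lower quartile, and values of the 4 genes and counts of gene lists are given without them where that changes a call. Unless another test is named, tests were from limma, with all 8 groups in 1 fit and Benjamini-Hochberg adjustment over the 5745 genes, and a gene was called at an adjusted p under 0.05.

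The C1q genes sit in 1 cluster. In the RefSeq annotation C1qb, C1qc and C1qa follow each other on chromosome 4, Cfb lies next to C2, another complement protease gene, on chromosome 17, and Cfi lies between Gar1 and Pla2g12a on chromosome 3. C1qc and C2 were not among the named genes. The stretch before the C1qb start is shown because C1qb and C1qa moved together in these kidneys. It covers chr4:136886201-136886450 on the minus strand of GRCm38.p6, from RefSeq, and is the only promoter among the 4 genes in the table used here.
C1qb promoter: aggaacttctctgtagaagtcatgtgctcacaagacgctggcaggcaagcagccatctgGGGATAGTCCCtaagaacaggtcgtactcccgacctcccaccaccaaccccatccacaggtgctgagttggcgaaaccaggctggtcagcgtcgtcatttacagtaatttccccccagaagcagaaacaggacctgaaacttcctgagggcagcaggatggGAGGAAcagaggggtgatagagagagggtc
Capitals mark matches to a form of the NF-kB motif (GGG and CC with 5 bases of any kind between them) and to GAGGAA, the core of the motif of PU.1, the myeloid transcription factor encoded by Spi1. Both strands were searched. The NF-kB form matched 2 times at overlapping places, once on each strand, and is held by 45.8% of 32851 mouse promoters of this length. GAGGAA matched 1 time, within the last 30 bases before the start, and is held by 23.3% of them. The interferon-stimulated response element (GAAA and GAAA with 2 bases between), TTCNNNGAA (the STAT motif) and TATAAA were not in this window. A match in letters is a description of this window and shows no binding.

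C1qa and C1qb, 2 of the 3 recognition chains of the classical pathway, did not pass the test after 50 mg/kg by either route or after 200 mg/kg ip. They rose after 200 mg/kg iv, to 2.83-fold and 2.00-fold of saline, and further after 400 mg/kg, to 13.6-fold and 7.74-fold of saline by the iv route and to 24.2-fold and 19.6-fold by the ip route. Cfi, the protease that inactivates complement, had the same dose pattern, with 4.69-fold at 200 mg/kg iv, 13.9-fold at 400 mg/kg iv and 11.3-fold at 400 mg/kg ip. Cfb, the protease of the alternative pathway, was called at 400 mg/kg only, at 1.73-fold iv and 1.48-fold ip. All 4 genes were thus called higher at 400 mg/kg by both routes, where 30.7% of all tested genes rose iv and 36.3% rose ip, and 3 of 4 were called at 200 mg/kg iv, where 6.07% of all genes rose.

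**Figure D1:**
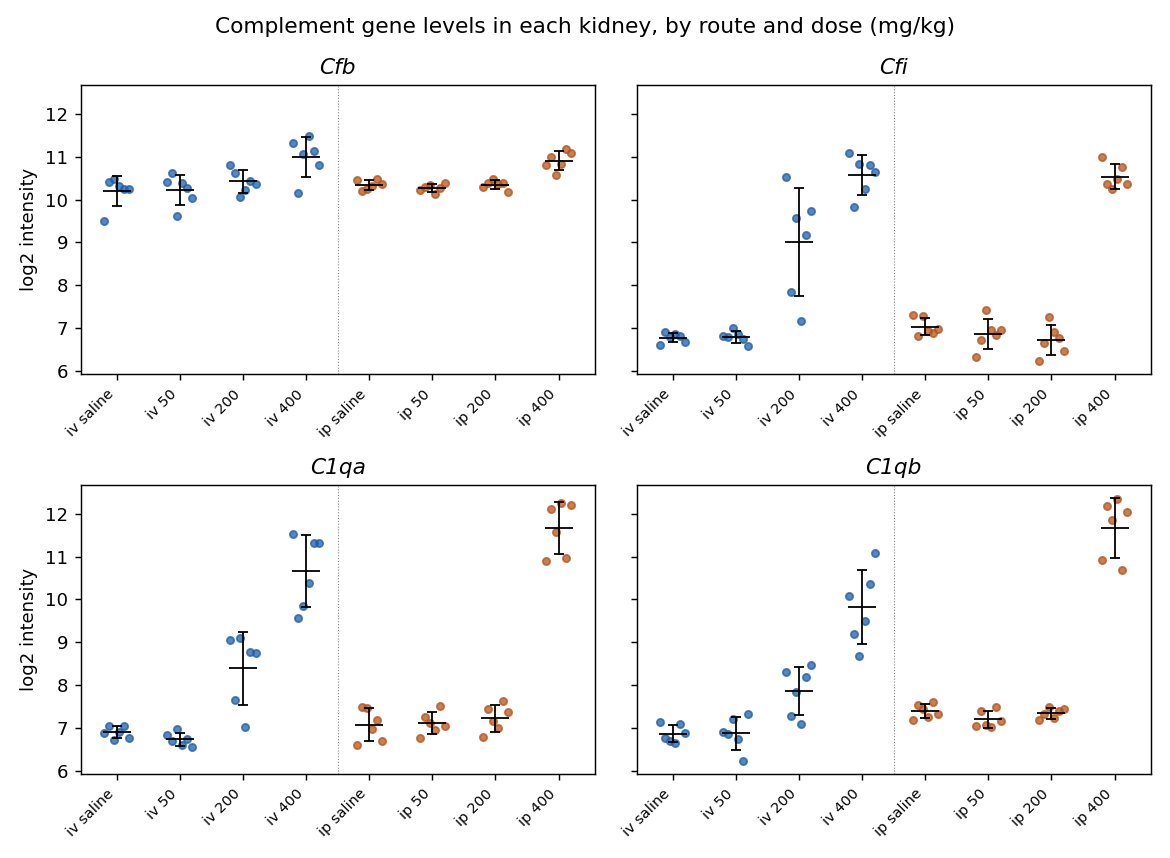
Log2 intensity (vertical axis) of Cfb, Cfi, C1qa and C1qb in each of the 48 kidneys, by route and dose in mg/kg (horizontal axis); points are single mice and bars are the mean ± SD of 6 mice. The 400 mg/kg groups of Cfi, C1qa and C1qb lie wholly above saline of the same route, the 200 mg/kg iv groups spread between saline and 400 mg/kg, and the 200 mg/kg ip groups lie with saline.

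For C1qa, iv saline arrays ran from 6.71 to 7.05 with a median of 6.89, and arrays at 50 mg/kg iv from 6.56 to 6.96 with a median of 6.72. Values at 200 mg/kg iv ran from 7.02 to 9.10 with a median of 8.76, and at 400 mg/kg iv from 9.58 to 11.54 with a median of 10.85. The 50 mg/kg arrays overlapped saline, 5 of 6 arrays at 200 mg/kg lay above every saline array, and all 6 at 400 mg/kg lay above every array of the lower doses. The group means rose from 6.89 ± 0.14 in saline to 8.39 ± 0.85 at 200 mg/kg and 10.66 ± 0.84 at 400 mg/kg (SD, n = 6 each). C1qa rose by 1.50 on the log2 scale (SE 0.29, adjusted p = 0.00045) at 200 mg/kg and by 3.77 (SE 0.29, adjusted p = 2.3e-14) at 400 mg/kg. This SE pools the spread of all 8 groups, while the SD was larger at 200 mg/kg than in saline. Over the alternatives with the same naming, the limma adjusted p at 200 mg/kg iv ran from 4.2e-07 to 0.038. The 2 doses differed by 2.27 (adjusted p = 7.9e-08).

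After ip dosing, C1qa ran from 6.59 to 7.49 in saline (median 7.09), from 6.77 to 7.52 at 50 mg/kg (median 7.08) and from 6.78 to 7.63 at 200 mg/kg (median 7.26). The 6 arrays at 400 mg/kg ip ran from 10.91 to 12.25 with a median of 11.84. The 3 lower groups overlapped, and no 400 mg/kg array came near them. This gave a log2 fold change of 4.60 at 400 mg/kg ip (SE 0.29, adjusted p = 1.4e-17). The 200 mg/kg ip value was 0.15, with a 95% confidence interval from -0.43 to 0.73.

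For C1qb, iv arrays ran from 6.64 to 7.13 in saline (median 6.82), from 6.23 to 7.31 at 50 mg/kg (median 6.89), from 7.09 to 8.48 at 200 mg/kg (median 8.02) and from 8.69 to 11.08 at 400 mg/kg (median 9.79). The 200 mg/kg range touched that of saline through 1 mouse, and the 400 mg/kg range lay above all others. The means were 6.87 ± 0.21, 6.88 ± 0.38, 7.87 ± 0.57 and 9.82 ± 0.86 in rising order of dose (SD, n = 6 each). C1qb had a log2 fold change of 1.00 (SE 0.26, adjusted p = 0.012) at 200 mg/kg and of 2.95 (SE 0.26, adjusted p = 1.2e-12) at 400 mg/kg, and the doses differed by 1.95 (adjusted p = 2.6e-07). Over the alternatives with the same naming, which include the other row of C1qb, the limma adjusted p at 200 mg/kg iv ran from 2.2e-06 to 0.047.

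C1qb in ip arrays ran from 7.17 to 7.60 in saline (median 7.39), from 7.03 to 7.49 at 50 mg/kg (median 7.11), from 7.17 to 7.49 at 200 mg/kg (median 7.35) and from 10.69 to 12.36 at 400 mg/kg (median 11.96). Only the 400 mg/kg arrays lay above the saline range. Its log2 fold change was 4.29 (SE 0.26, adjusted p = 1e-17) at 400 mg/kg and -0.05 (95% confidence interval from -0.58 to 0.48) at 200 mg/kg. The other named row of C1qb rose further, from 5.90 ± 0.32 in iv saline to 7.66 ± 0.95 at 200 mg/kg and 10.20 ± 0.95 at 400 mg/kg, and from 6.22 ± 0.48 in ip saline to 11.58 ± 0.72 at 400 mg/kg (SD, n = 6 each). The 2 probe sets of C1qb thus moved the same way and differed in the size of the change.

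Cfb encodes factor B, whose cleaved form is the protease of the alternative pathway convertase. Its iv arrays ran from 9.51 to 10.49 in saline (median 10.29), from 9.62 to 10.62 at 50 mg/kg (median 10.32), from 10.07 to 10.82 at 200 mg/kg (median 10.41) and from 10.15 to 11.50 at 400 mg/kg (median 11.10). Neighbouring doses overlapped at every step, and 5 of 6 arrays at 400 mg/kg lay above the highest saline array. The lowest value of each iv group was that of 1 of the 4 arrays that stood apart. These were mouse 1 (9.51), mouse 9 (9.62), mouse 27 (10.07) and mouse 44 (10.15, within the saline range). For Cfb the log2 fold change was 0.22 at 200 mg/kg iv (95% confidence interval from -0.10 to 0.54, adjusted p = 0.45) and 0.79 at 400 mg/kg iv (SE 0.16, adjusted p = 4.7e-05). Without the 4 arrays it was 0.82 at 400 mg/kg iv.

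By the ip route Cfb varied less. The arrays ran from 10.20 to 10.49 in saline (median 10.35), from 10.13 to 10.39 at 50 mg/kg (median 10.29), from 10.17 to 10.47 at 200 mg/kg (median 10.38) and from 10.58 to 11.18 at 400 mg/kg (median 10.91). The 400 mg/kg arrays did not overlap any lower group, although the step was small. This step had a log2 fold change of 0.57 (SE 0.16, adjusted p = 0.0019). The 200 mg/kg ip value was 0.00, with a 95% confidence interval from -0.32 to 0.32.

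Cfi encodes factor I, which cuts the active fragments of the central complement components and so limits the cascade. In iv arrays it ran from 6.61 to 6.90 in saline (median 6.81), from 6.59 to 7.01 at 50 mg/kg (median 6.80), from 7.17 to 10.53 at 200 mg/kg (median 9.38) and from 9.84 to 11.09 at 400 mg/kg (median 10.73). Every 200 mg/kg array lay above every saline array, and the 200 and 400 mg/kg ranges overlapped. The means were 6.78 ± 0.11, 6.80 ± 0.14, 9.01 ± 1.26 and 10.58 ± 0.46 (SD, n = 6 each). Cfi rose by 2.23 on the log2 scale (SE 0.29, adjusted p = 7.4e-07) at 200 mg/kg and by 3.80 (SE 0.29, adjusted p = 2.3e-14) at 400 mg/kg, and the doses differed by 1.57 (adjusted p = 3.8e-05). The SE pools the spread of all groups, while the SD was 0.11 in saline and 1.26 at 200 mg/kg. Over the alternatives with the same naming, the limma adjusted p at 200 mg/kg iv ran from 8.6e-11 to 0.036.

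In ip arrays Cfi ran from 6.82 to 7.31 in saline (median 6.95), from 6.32 to 7.41 at 50 mg/kg (median 6.89), from 6.24 to 7.25 at 200 mg/kg (median 6.71) and from 10.26 to 11.00 at 400 mg/kg (median 10.42). The 3 lower groups overlapped, and the 400 mg/kg arrays stood alone. The log2 fold change was 3.50 (SE 0.29, adjusted p = 4.1e-14) at 400 mg/kg and -0.32 (95% confidence interval from -0.91 to 0.26) at 200 mg/kg.

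Some of these separations were common in the table. Every treated array lay above every saline array for 1.24% of all genes at 200 mg/kg iv, where this held for Cfi among the 4. The share was 15.1% at 400 mg/kg iv, where it held for Cfi, C1qa and C1qb, and 24.1% at 400 mg/kg ip, where it held for all 4. At 50 mg/kg neither route moved any of the 4 genes past the threshold, where 0.54% of all genes were called iv and 0.087% ip, and at 200 mg/kg ip the share was also 0.087%. The log2 fold changes at 50 mg/kg lay between -0.16 (C1qa) and 0.02 (Cfi) iv and between -0.19 (C1qb) and 0.04 (C1qa) ip. Going from 200 to 400 mg/kg, all 4 genes were called higher by both routes, where 17.8% of genes rose iv and 35.2% ip. Cfb moved by 0.57 iv (adjusted p = 0.0041) and by 0.56 ip (adjusted p = 0.0020) in this step. For the other 3 genes the ip step, from 3.83 for Cfi to 4.45 for C1qa, led from a level not told apart from saline to the top of the range. The Cfb step iv lost its call in a fit of these 2 groups alone (adjusted p = 0.060, against a range from 8.0e-06 to 0.060 over the alternatives).

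**Figure D2:**
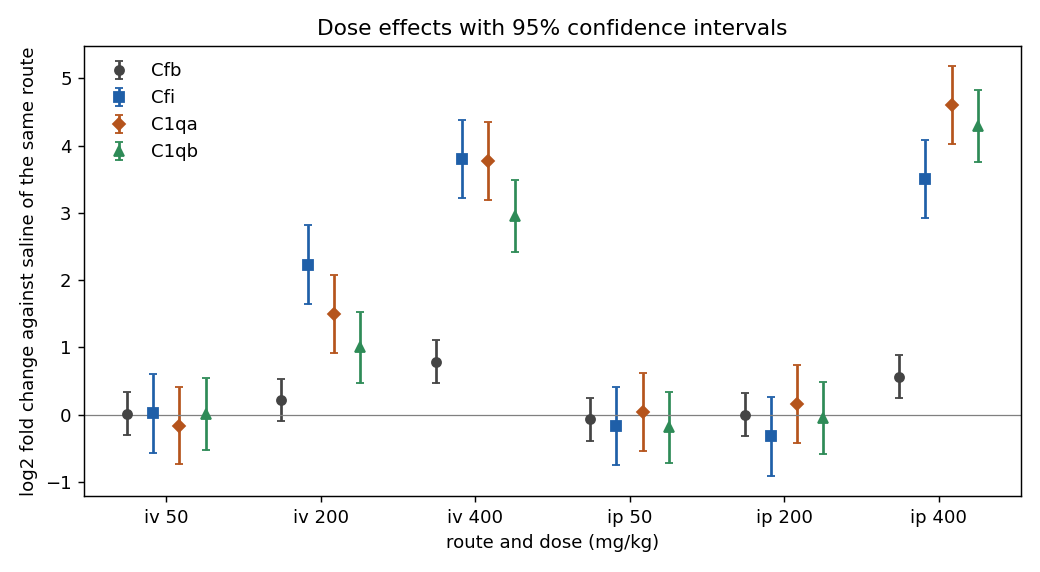
Log2 fold change of each gene against saline of the same route (vertical axis) at each route and dose in mg/kg (horizontal axis); points are limma estimates and bars are 95% confidence intervals, n = 6 mice per group. The intervals of Cfi, C1qa and C1qb lie above 0 at 200 mg/kg iv and at 400 mg/kg by both routes, and that of Cfb lies above 0 at 400 mg/kg only.

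The Cfi effect of 200 mg/kg differed between the ip and the iv arrays, and route and array batch cannot be told apart here. The ip effect minus the iv effect was -2.55 (SE 0.41, 95% confidence interval from -3.38 to -1.73, adjusted p = 0.00028), in a comparison that called 0.975% of genes. The same difference was -1.35 for C1qa (adjusted p = 0.095), -1.05 for C1qb (adjusted p = 0.17) and -0.22 for Cfb (adjusted p = 0.76), none of which passed. Without mouse 26 or without mouse 28, the 2 iv mice with the lowest values, the C1qa difference passed (adjusted p = 0.039 and 0.0075, against a range from 0.0075 to 0.19 when each array was left out in turn). C1qb differed between the routes' arrays at 400 mg/kg, by 1.34 (SE 0.37, 95% confidence interval from 0.58 to 2.09, adjusted p = 0.031), with the ip effect the larger, in a comparison that called 4.23% of genes. This call was lost for the other row of C1qb (1.06, adjusted p = 0.21), in a fit of these 4 groups alone (adjusted p = 0.12), without the 4 arrays that stood apart (1.16, adjusted p = 0.082), and without any 1 of mouse 5, 44, 45, 104, 106 or 108 (values from 1.11 to 1.59 over all such omissions, adjusted p from 0.0028 to 0.081). For C1qa it was 0.83 (95% confidence interval from 0.01 to 1.65, adjusted p = 0.25), for Cfi -0.30 (adjusted p = 0.75) and for Cfb -0.22 (adjusted p = 0.64). At 50 mg/kg no gene of the 4 differed by route, where 0.191% of all genes were called. The saline groups of the routes differed by 0.14 for Cfb, 0.18 for C1qa, 0.26 for Cfi and 0.52 for C1qb (ip minus iv, adjusted p from 0.088 to 0.61). After quantile normalization these were -0.32, -0.35, -0.27 and -0.01, so the direction depends on the scaling. The C1qb difference was called in a fit of the saline groups alone (0.52, adjusted p = 0.0023), with array weights (0.59, adjusted p = 0.0043) and with 2 residual components (0.52, adjusted p = 0.0099), against an adjusted p from 0.0023 to 0.99 over the alternatives.

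The sizes of the 400 mg/kg effect were compared between genes by an exact permutation test of treated against saline arrays (924 splits, two-sided, smallest p 0.0022), with adjustment over the 12 pairs of both routes. By the iv route Cfi exceeded Cfb by 3.01 ± 0.20 (SE of the log2 difference of effects), C1qa exceeded Cfb by 2.98 ± 0.34 and C1qb exceeded Cfb by 2.16 ± 0.44. By the ip route the same 3 differences were 2.94 ± 0.16, 4.03 ± 0.33 and 3.72 ± 0.33, and the adjusted p was 0.0043 in each of the 6 exact tests. Cfb therefore rose less than each of the other 3 by both routes. No difference in effect was detected between C1qa and Cfi iv (-0.03 ± 0.26, exact adjusted p = 0.93), while C1qa exceeded Cfi ip by 1.10 ± 0.40 (exact adjusted p = 0.043). The latter call was lost without any 1 of 7 of the 12 mice (mouse 61, 64, 66, 104, 105, 106 or 108), with values from 0.95 to 1.34 over the omissions. C1qb minus Cfi was -0.85 ± 0.36 iv (exact adjusted p = 0.043, lost in 10 of 12 omissions of 1 mouse) and 0.79 ± 0.41 ip (exact adjusted p = 0.085). C1qb minus C1qa was -0.82 ± 0.20 iv (exact adjusted p = 0.011) and -0.31 ± 0.14 ip (exact adjusted p = 0.070). For the second row of C1qb the difference from C1qa was 0.53 iv and 0.76 ip, the reverse direction, so the order of the C1q chains depends on the probe set.

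Single mice differed within the groups that responded. At 200 mg/kg iv, Cfi was 7.17 in mouse 28, 7.85 in mouse 26, 9.19 in mouse 29, 9.57 in mouse 27, 9.74 in mouse 30 and 10.53 in mouse 25. C1qa in the same mice was 7.02, 7.65, 8.78, 9.10, 8.75 and 9.06, and C1qb was 7.09, 7.28, 8.19, 7.85, 8.48 and 8.31. Mouse 28 and mouse 26 were the lowest for all 3 genes, and mouse 25 reached the range of the 400 mg/kg group for Cfi but not for C1qa or C1qb. In the 400 mg/kg ip group C1qa was 10.91 in mouse 103, 10.98 in mouse 107, 11.58 in mouse 105, 12.11 in mouse 104, 12.20 in mouse 108 and 12.25 in mouse 106. Cfi in the same mice was 11.00, 10.77, 10.26, 10.36, 10.36 and 10.49, so the mice lowest for C1qa were the highest for Cfi. Across the 6 mice at 200 mg/kg iv, Cfi and C1qa had r = 0.95 (exact permutation p = 0.011, adjusted 0.17 over 48 such tests) and Spearman's rho = 0.71 (exact permutation p = 0.14, adjusted 0.70). Without the 2 mice farthest from the median, r was 0.50, so the relation rests on them. Across the 400 mg/kg ip mice r was -0.78 (exact permutation p = 0.075, adjusted 0.36), rho was -0.49 (exact permutation p = 0.36, adjusted 0.78), and r without the 2 farthest was 0.85. None of the 48 relations within groups passed the adjustment. With 6 mice the exact p has a floor, and adjusted over 48 tests no relation could pass alone. This outcome thus does not show that relations were absent.

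**Figure D3:**
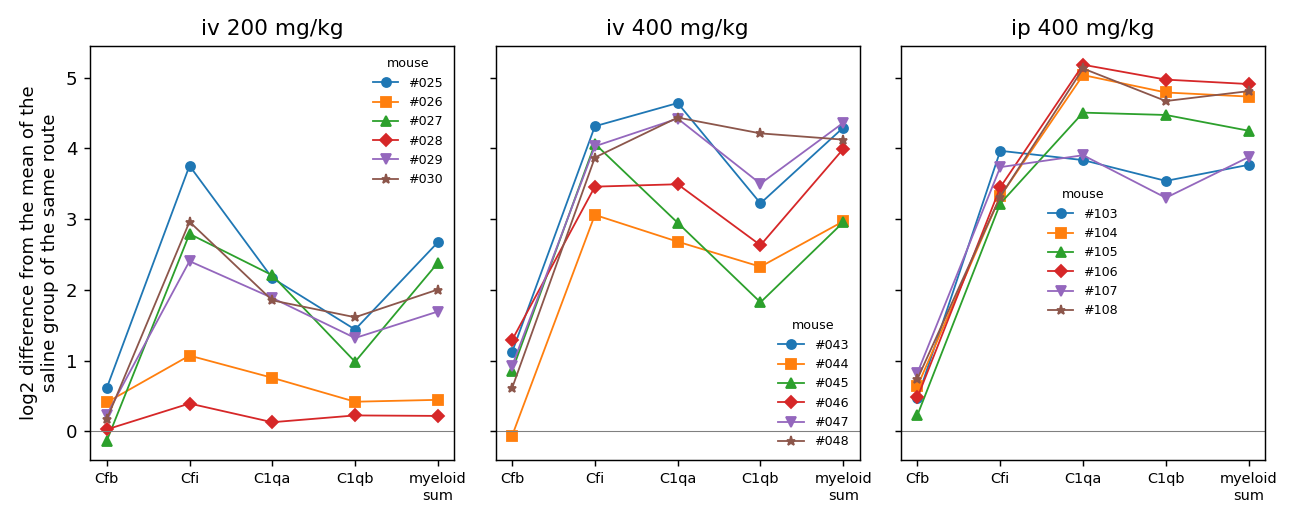
Log2 difference of each mouse from the mean of saline of its route (vertical axis) for the 4 genes and for the summed level of 16 myeloid marker genes (horizontal axis), in the groups at 200 mg/kg iv, 400 mg/kg iv and 400 mg/kg ip; each line is 1 mouse. Mice 26 and 28 lie lowest at 200 mg/kg iv for Cfi, C1qa, C1qb and the myeloid sum. The sum includes genes that passed the filter only with the help of treated arrays, and Lyz2 and Cd14, the genes of highest intensity, weigh most in it.

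Over all 48 arrays, after subtracting group means, the residuals of C1qa and C1qb correlated at r = 0.80, C1qa and Cfi at 0.55, Cfi and C1qb at 0.30, and Cfb with the others at 0.26 (Cfi), 0.15 (C1qa) and -0.07 (C1qb). With the other row of C1qb in its place, the residual r was 0.91 for C1qa, 0.50 for Cfi and 0.30 for Cfb. These arrays share groups and processing, and the values are given as a description. C1qa and C1qb thus varied together from mouse to mouse more than either varied with Cfb. The tested gene most like C1qa over the 48 arrays was Fcer1g, the signalling chain of Fc receptors (r = 0.99, residual r = 0.88), followed by Cd44, Ifi202b, Psmb8 and Ms4a6b (r = 0.98 each, residual r from 0.78 to 0.83). For C1qb they were Cyp7b1, Tpbg, Cd44, Fcer1g and Clec4a2 (r from 0.97 to 0.98, residual r from 0.71 to 0.79). Cd44 and Fcer1g thus stood among the 5 nearest genes of both C1qa and C1qb. For Cfi they were Socs3, a feedback inhibitor of cytokine signalling, Clu, the complement regulator clusterin, the mitotic genes Cdca5 and Birc5, and Tmem176a (r from 0.96 to 0.97, residual r from 0.70 to 0.78). Those of Cfb were less close. They were Bcl10, Cap1, Ifngr2, the interferon gamma receptor chain, Fen1 and Rap1b (r from 0.83 to 0.84, residual r from 0.64 to 0.72). Cfb was lowest in each iv group in an array that stood apart, and its correlations without those arrays were not computed.

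The complement list held 59 symbols, some of them alternative names of 1 gene, such as C5 and Hc. Of the 59, 23 had a named row and 14 were tested. Among the 14, Masp1 and Itgam passed the filter only with the help of treated arrays. Leaving out these 2 and the 4 genes described above, 8 remained. Of the 8, 5 rose and 2 fell at 400 mg/kg iv, where 30.7% of all genes rose and 19% fell, with a median log2 fold change of 0.88 against 0.09 over all genes. By the ip route 4 rose and 1 fell at this dose, where 36.3% of all genes rose and 25.1% fell, with a median of 1.24 against 0.11. The falls were thus near the share of all genes. Only C1ra and Clu, 2 of the 8, rose at 200 mg/kg iv, where 6.07% of all genes rose, and the median was 0.28 against 0.06. None was called at 200 mg/kg ip, and the median was 0.04 against 0.02. Central components C3, C4b and Hc (C5) were not among the named genes, so their levels were not analysed here.

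Among the classical pathway proteases that C1q activates, C1ra rose by 0.96 on the log2 scale at 200 mg/kg iv (adjusted p = 0.0073), 2.29 at 400 mg/kg iv and 2.89 at 400 mg/kg ip. C1s1 had a log2 fold change of 0.67 at 200 mg/kg iv (adjusted p = 0.092) and rose by 1.90 and 2.54 at 400 mg/kg iv and ip. Of 12 classical pathway symbols listed, 4 were tested, C1qa and C1qb among them. All 4 were called higher at 400 mg/kg by both routes, where 30.7% of all genes rose iv and 36.3% ip. Serping1, which encodes the inhibitor of those proteases, rose by 1.46 iv and 2.32 ip at 400 mg/kg. Masp1, a protease of the lectin pathway, had saline means of 3.45 ± 0.42 iv and 3.48 ± 0.11 ip, at the median of the table, and means of 4.20 ± 0.80 iv and 4.89 ± 0.55 ip at 400 mg/kg (SD, n = 6 each). Clu, a fluid-phase inhibitor of the membrane attack complex, rose by 3.01 at 200 mg/kg iv, 4.15 at 400 mg/kg iv and 3.56 at 400 mg/kg ip. Its effect at 200 mg/kg differed between routes by -2.83 (ip minus iv, adjusted p = 0.00042), in the same comparison that called Cfi.

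Of the 4 membrane-bound regulators tested, 2 fell and 1 rose at 400 mg/kg iv and 1 fell at 400 mg/kg ip, where 19% and 25.1% of all genes fell. Cd59a, which blocks the membrane attack complex on cells, fell by 0.46 at 400 mg/kg iv (adjusted p = 0.0013) and by 0.66 at 400 mg/kg ip (adjusted p = 6.9e-06). Susd4 fell by 0.94 at 400 mg/kg iv (adjusted p = 0.0042) and had -0.16 ip (adjusted p = 0.62). Cr1l (Crry), a regulator on rodent cells, rose by 0.31 iv (adjusted p = 0.0077) and had 0.17 ip (adjusted p = 0.14). Cd55, which speeds the decay of convertases, had -0.05 iv and -0.13 ip, and the ip value passed only after quantile normalization (-0.37, adjusted p = 0.0067, against 0.33 without it). Itgam, a chain of complement receptor CR3 on myeloid cells, was below the median of the table in saline, with means of 2.43 ± 0.05 iv and 2.45 ± 0.03 ip, and had means of 4.23 ± 1.22 iv and 6.00 ± 0.61 ip at 400 mg/kg (SD, n = 6 each), so no fold is given.

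**Figure D4:**
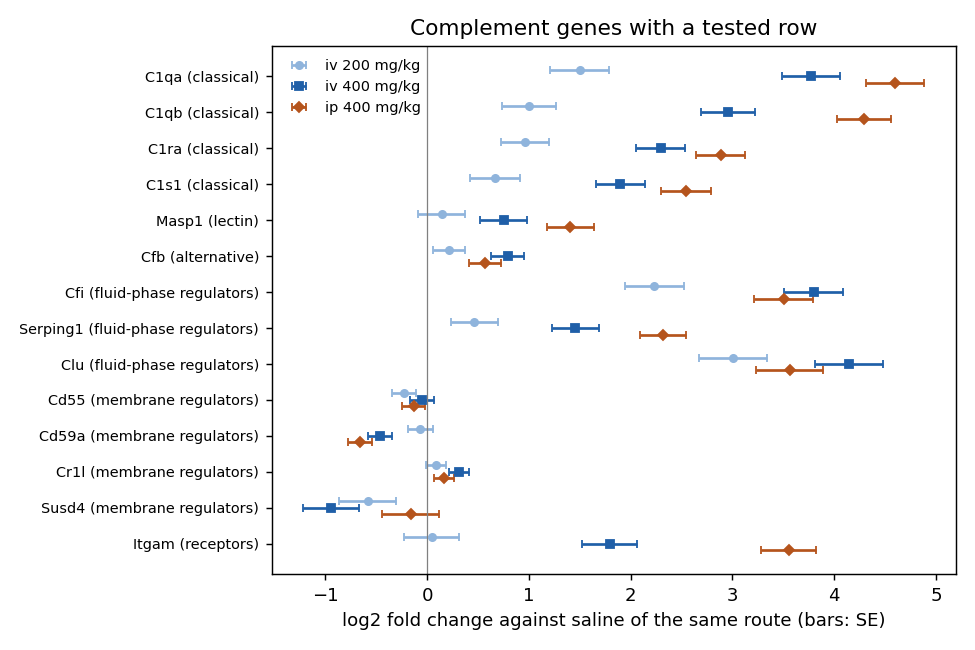
Log2 fold change against saline of the same route (horizontal axis) of the 14 tested complement genes (vertical axis, with their role) at 200 mg/kg iv, 400 mg/kg iv and 400 mg/kg ip; points are limma estimates and bars are SE, and those of Masp1 and Itgam start from saline values near or below the median of the table. The classical pathway genes and fluid-phase regulators lie to the right of 0 at 400 mg/kg. Cd55, Cd59a and Susd4 lie near or left of 0, and Cr1l lies slightly to the right.

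Markers of other cell types moved in the same kidneys. Of 30 myeloid marker genes listed, 17 were named and 16 tested, and 9 of these exceeded the median of the table in at least 6 saline arrays. Of the 9, 7 rose at 200 mg/kg iv (median log2 fold change 1.49 against 0.06 over all genes), where 6.07% of all genes rose. At the highest dose 8 of 9 rose iv (3.16 against 0.09) and 9 of 9 ip (4.29 against 0.11), where 30.7% and 36.3% of all genes rose. None was called at 200 mg/kg ip (0.16 against 0.02). The other 7 passed the filter only with the help of treated arrays and are not in these counts. The largest changes among the 9 at 400 mg/kg were those of Cd14, Ly86 and Lyz2. Cd14, the lipopolysaccharide co-receptor, rose by 5.31 iv and 5.78 ip on the log2 scale, and Ly86 by 4.58 and 5.90. Lyz2, the macrophage lysozyme, rose by 4.38 and 5.18. Csf1r and Laptm5 changed least, by 0.44 and 0.22 iv and by 0.65 and 0.70 ip, and Laptm5 was not called iv. Ccr2, a monocyte chemokine receptor and 1 of the 7, had means of 3.13 ± 0.17 in ip saline, below the median of the table, and 8.47 ± 0.40 at 400 mg/kg ip (SD, n = 6 each). A sum over all 16 genes includes these 7, so part of its rise can come from the filter, and it is given as a description. It adds linear intensities, so the genes with the highest values weigh most. At 400 mg/kg these were Lyz2 and Cd14, with means of 11.6 and 11.2 iv and 12.6 and 11.5 ip. The log2 of the summed intensity of the 16 genes ran from 9.08 to 9.37 in iv saline, 8.89 to 9.34 at 50 mg/kg, 9.45 to 11.90 at 200 mg/kg and 12.19 to 13.59 at 400 mg/kg. In the 200 mg/kg iv group it was lowest in mouse 28 (9.45) and mouse 26 (9.67), the mice lowest for Cfi, C1qa and C1qb. In ip groups it ran from 8.95 to 10.02 in saline, 9.26 to 9.62 at 50 mg/kg, 9.40 to 10.09 at 200 mg/kg and 13.26 to 14.40 at 400 mg/kg. The part of myeloid cells in the rise of C1qa, C1qb, Cfi and Cfb was not tested.

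Of 9 tested kidney epithelial genes, 7 fell at 400 mg/kg iv (median log2 fold change -1.36 against 0.09 over all genes) and 8 at 400 mg/kg ip (-1.67 against 0.11), where 19% and 25.1% of all genes fell. Their summed log2 intensity ran from 15.26 to 15.69 in iv saline and 13.71 to 15.10 at 400 mg/kg iv, and from 15.92 to 16.09 in ip saline and 14.46 to 15.20 at 400 mg/kg ip. Of the 3 tested liver markers, Alb and Apoa2 fell at 400 mg/kg, from 6.20 to 3.58 (Alb) and from 4.84 to 3.11 (Apoa2) iv and from 6.79 to 3.54 and from 4.65 to 2.82 ip (group means), ending near or below the median of the table, while Fga, the fibrinogen alpha chain gene, rose by 4.24 iv and 4.08 ip. Their summed log2 intensity ran from 7.51 to 8.66 in iv saline and 10.16 to 12.90 at 400 mg/kg iv, and from 8.05 to 8.47 in ip saline and 10.69 to 12.26 at 400 mg/kg ip. This sum adds linear intensities, so its rise is that of Fga, the only 1 of the 3 that rose. At 400 mg/kg Fga had means of 11.68 iv and 11.42 ip. Of 5 endothelial markers, 1 fell at 400 mg/kg iv (Tek, -0.40) and 1 at 400 mg/kg ip (Egfl7, -0.54), near the 19% and 25.1% of all genes that fell. Tek at 400 mg/kg ip (-0.29, adjusted p = 0.088) was also called after quantile normalization (adjusted p = 0.0076), after median centring (adjusted p = 0.041) and without the 4 iv arrays that stood apart (adjusted p = 0.019), which makes 2 of 5. Csf3r of neutrophils passed the filter only with the help of treated arrays, with means of 3.16 ± 0.05 in iv saline and 3.58 ± 0.40 at 400 mg/kg iv, and of 3.32 ± 0.03 in ip saline and 4.59 ± 1.08 at 400 mg/kg ip (SD, n = 6 each). Single tested markers of other leukocytes were Cd8a of T cells (0.01 iv, adjusted p = 0.95, and -0.39 ip, adjusted p = 0.0014) and Ighm of B cells (1.31 iv, adjusted p = 0.0013, and 2.51 ip, adjusted p = 1.7e-08). Their part in the complement values was not tested either.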

How the data were processed

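RNA of 48 kidneys, 1 per mouse, was hybridised to Affymetrix mouse arrays. The authors deposited 1 table of linear intensity values, normalized with GCRMA per the submitters' processing notes (version not given in the sources used here). Its value rows are shifted against the identifiers, so rows were named by position in 3 stretches (data rows 751 to 3250, 5001 to 11750 and 34251 to 36000, with offsets of 64, -47 and -16168 rows). This named 22.6% of 45101 rows, and the rest stayed unnamed. Of the platform's probe sets, 34958 had 1 symbol, 932 had several and 9211 had none; only those with 1 were named. Per gene the row with the highest mean was kept.

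Values were taken to log2 as they stand, with no further scaling. Genes whose row exceeded the median of the table on 6 or more arrays were tested with limma 3.58.1 in R 4.3.3 (8 group means, trended eBayes, Benjamini-Hochberg over 5745 genes). The script was tested on simulated data. Effects of different genes were compared by exact permutation. Mouse numbers in the labels mark separate animals, but which arrays were processed together is not given in the sources used here, so route and array batch cannot be told apart. For arrays, their number limits the precision.

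The 4 genes, the gene lists and the tests were chosen with earlier results of these data known. Named are the 4 genes, any named complement gene, and the 5 genes nearest to each of the 4. Also named are the 3 largest changes at 400 mg/kg per cell type list and the smallest of the myeloid list. Slc34a1 and Umod as checks of the tissue fall under the epithelial list. Alternatives were quantile normalization, median centring, a background floor, 2 other filters, fits of the compared groups alone, array weights, 2 residual components as covariates, no variance trend, all rows as the test family, the identifiers as listed, the other C1qb row, and leaving out each array. Leaving out 4 iv arrays, and the other C1qb row in comparisons between genes, were added after seeing the data.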

Additional observations from a re-analysis of the deposited data

Results flagged for a closer look

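The lowest Cfb value of the iv saline group, 9.51 in mouse 1, stood far from the other 5 arrays (10.21 ± 0.35, SD, n = 6, for the whole group), with a gap of 0.762 of the group's range, more than Dixon's test allows at 95%. This is 1 of the 4 iv arrays that stood apart. Such a gap was looked for in 32 sets of 6 arrays, and chance gives one in about 1 of 20 groups.

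The Cfi effect of 200 mg/kg differed between routes by -2.55 (ip minus iv, limma adjusted p = 0.00028). Without the 4 iv arrays it was -2.41 (adjusted p = 0.0024). The C1qb effect of 400 mg/kg differed between routes by 1.34 (limma adjusted p = 0.031), with the ip effect the larger. Without the 4 iv arrays it was 1.16 and no longer called (adjusted p = 0.082).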

How the results depend on the processing

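The 8 effects of 400 mg/kg on the 4 genes kept their direction and call in 90 of 90 comparisons with an alternative, other than taking the identifiers as listed. Over all results of the 4 genes, 554 of 570 such comparisons kept both, as did 835 of 864 with 1 array left out. Taken with the identifiers as listed, the names pass to other rows and many values turn. Cfb at 200 mg/kg iv had 0.88 (now called), C1qa 0.20 and Cfi 0.17 (no longer called) and C1qb -0.13. Cfi at 400 mg/kg had -0.40 iv and -0.29 ip and C1qb -0.33 iv and -0.76 ip. From 200 to 400 mg/kg Cfi had -0.57 iv and -0.46 ip and C1qb -0.21 iv and -0.84 ip. Route differences were -0.0088 for Cfi at 200 mg/kg, and 1.54 for Cfb and -0.42 for C1qb at 400 mg/kg. The saline groups differed by -1.11 for Cfb. The cause lies in the naming itself, since other rows are read.

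The other changed calls, whose cause was not tested, were these. The Cfb step from 200 to 400 mg/kg iv was 0.57 in a fit of those groups alone and no longer called. Newly called at 200 mg/kg were the route differences of C1qa with array weights (-1.45) and 2 residual components (-1.35), and of C1qb with those groups alone (-1.05), array weights (-1.39) and 2 residual components (-1.05). The same 3 settings newly called the C1qb difference between saline groups (0.52, 0.59 and 0.52). Lost at 400 mg/kg was the C1qb route difference (1.34 with those groups alone, 1.06 for its other row, 1.16 without the 4 iv arrays). With the other row of C1qb, C1qb minus Cfi was 0.50 iv and 1.86 ip, and C1qb minus C1qa 0.53 iv and 0.76 ip.

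With each array left out in turn, ranges were -1.62 to -1.20 for the C1qa route difference at 200 mg/kg and 1.11 to 1.59 for that of C1qb at 400 mg/kg. For differences between genes they were -1.08 to -0.57 (C1qb minus Cfi iv, lost in 10 of 12 omissions, all but iv saline mouse 4 and iv 400 mouse 48), 0.95 to 1.34 (C1qa minus Cfi ip), 0.64 to 1.03 (C1qb minus Cfi ip, called without mouse 103 or 107) and -0.38 to -0.24 (C1qb minus C1qa ip, called without mouse 62 or 63).

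The 423 genes at 200 mg/kg iv became 77 with the compared groups alone, 1399 with array weights, 1114 with 2 residual components, 250 without the 4 iv arrays and 271 without mouse 25, and the split of 349 higher and 74 lower became 297 and 149 after quantile normalization. The 56 route differences at 200 mg/kg became 31 with no filter, 24 without the 4 arrays, 714 with array weights and 392 with 2 residual components, and with 1 array left out ran from 19 (without mouse 27) to 179 (without mouse 28), with 131 without mouse 26. The 243 at 400 mg/kg became 74 with the compared groups alone, 641 and 842, and with 1 array left out ran from 143 (without mouse 104) to 526 (without mouse 107), with 460 without mouse 48. The 31 genes at 50 mg/kg iv became 90 and 54, and the 11 route differences at 50 mg/kg became 51 and 20. The 5 at 50 mg/kg ip became 13 with array weights, 3 after quantile normalization and 0 with the compared groups alone (limma; 107 genes at an unadjusted p under 0.05 with all groups). The 5 at 200 mg/kg ip became 18 with array weights, 12 with 2 residual components, 9 without the 4 iv arrays and 3 after quantile normalization. Between saline groups 3315 (3168 higher, 147 lower) became 1350 (622 and 728) after quantile normalization and 2149 (1913 and 236) after centring. Quantile normalization moved the median change of all genes at 400 mg/kg ip from 0.11 to -0.01, and the 2084 higher and 1440 lower became 1812 and 1826. Counts with all rows or listed identifiers cover other sets of rows. No paired analysis was possible because the groups share no mouse numbers. Among the marker genes, without the 4 iv arrays the calls of Fcgr1 (adjusted p = 0.072) and Egfl7 (adjusted p = 0.18) at 200 mg/kg iv were lost. Csf1r at 400 mg/kg iv was no longer called after centring (adjusted p = 0.063). Probe sets near background limit what low genes can show.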

Other observations

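The fitted effect of 200 mg/kg iv was 2.23 for Cfi, 1.50 for C1qa and 1.00 for C1qb on the log2 scale, or 1.77 with the other row of C1qb. For 400 mg/kg iv the values were 3.80, 3.77 and 2.95 (4.30 with the other row), and for 400 mg/kg ip 3.50, 4.60 and 4.29 (5.36 with the other row). The order of the genes thus depends on the C1qb probe set, and whether it differs between routes was not tested.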
